A study of Mus musculus with 4 samples.

Results

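The genes described here are 39 listed genes of glycolysis and of the response to low oxygen, of which 38 were found among the 30199 gene names on the array. A gene was matched by its name in the scanner files and represented by the probe with the highest mean processed signal. Pkm2 was not found under that name, and a probe named Pkm, the current symbol of the pyruvate kinase gene, is given separately. All 38 genes were well above background in all 8 channels, so none was lost to the filter on dim probes that left 19622 genes for testing.

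The samples were microdissected mouse hearts at embryonic day 9.5 on a mixed CD1/B6/129 background. Each of 4 two-colour arrays compared hearts labelled Nkx2.5Cre; Hdac3f/f, in which Cre driven from Nkx2.5, a gene of cardiac progenitors, is meant to remove the histone deacetylase Hdac3, with littermate hearts labelled Hdac3f/f. Each sample of a genotype was a pool of 3 hearts, per the series' design. All embryos carried the floxed allele and only the mutants are stated to carry Cre, so loss of Hdac3 and presence of Cre cannot be told apart. The unit of replication is the array (n = 4). Cells outside the Cre lineage keep Hdac3, and the RNA is from whole dissected hearts. In such bulk RNA, fewer cells of a type and less RNA per cell cannot be told apart. Replicates 2 to 4 are titled and sourced as hearts but carry a description of stem cells. All 15 listed sarcomere genes, Actc1 and Myl7 among them, were well above background in every channel. Of 8 listed pluripotency genes, 6 were past the filter and Pou5f1 was not.

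The direction of the ratios is not settled. The labels put mutant RNA in Cy5 on every array. The authors' columns, named as mutant over wild type, followed the scanner's Cy5 over Cy3 ratio on arrays 1 and 2 (slopes of 1.03 and 1.01) and had the opposite sign on arrays 3 and 4 (slopes of -0.990 and -1.01). Over 5737 bright probes the authors' columns of arrays 1 and 2 correlated with those of array 4 at r = -0.524 and -0.412 and with those of array 3 at -0.049 and -0.210. As Cy5 over Cy3 the same pairs gave 0.453 and 0.306, and -0.022 and 0.161, so arrays 1 and 3 were near 0 in both readings. Values are therefore given as the authors' columns name them, and again as Cy5 over Cy3, which is the mutant over control ratio if the labels are right. Array 3 stood apart in spread, with a standard deviation of 0.429 over all genes against 0.213 to 0.256 on the others. Hdac3 itself read -0.220, -0.498, -0.522 and -1.149 on arrays 1 to 4 in the authors' direction (mean log2 ratio -0.60 ± 0.39, SD; limma adjusted p = 0.586), and had a mean of 0.24 ± 0.74 as Cy5 over Cy3. Whether its probe lies within the deleted exons was not analysed here, so it does not check the deletion.

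Glycolysis splits glucose into pyruvate in the cytosol, and lactate dehydrogenase turns pyruvate into lactate where the mitochondria do not take it up. The early embryonic heart relies strongly on glycolysis and develops at low oxygen. When oxygen is scarce the prolyl hydroxylases no longer mark the HIF alpha subunits for destruction through the VHL protein, and HIF alpha joins Arnt to switch on genes of glycolysis, blood vessel growth and acid handling. HIF dimers bind DNA at the core letters ACGTG or GCGTG.

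The promoters of 4 members are printed because they stand for the main patterns described further on, namely genes above 0 on every array in the authors' direction (Slc2a1, Ddit4), a gene below 0 on every array in that direction (Hif1a) and a gene above 0 on every array as Cy5 over Cy3 (Pgk1). The letters are the 250 bases before the start of the gene, 5′ to 3′ on the gene's strand, from RefSeq (GRCm38.p6), and capitals mark ACGTG and GCGTG on either strand, overlapping matches included. Slc2a1 lies on the plus strand at chr4:119108495-119108744, Ddit4 on the minus strand at chr10:59951771-59952020, Hif1a on the plus strand at chr12:73907617-73907866 and Pgk1 on the plus strand at chrX:106186850-106187099.
Slc2a1: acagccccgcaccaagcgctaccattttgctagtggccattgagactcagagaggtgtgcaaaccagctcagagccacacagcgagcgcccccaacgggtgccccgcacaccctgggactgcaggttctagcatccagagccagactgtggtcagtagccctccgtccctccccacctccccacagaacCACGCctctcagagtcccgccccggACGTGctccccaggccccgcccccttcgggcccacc
Ddit4: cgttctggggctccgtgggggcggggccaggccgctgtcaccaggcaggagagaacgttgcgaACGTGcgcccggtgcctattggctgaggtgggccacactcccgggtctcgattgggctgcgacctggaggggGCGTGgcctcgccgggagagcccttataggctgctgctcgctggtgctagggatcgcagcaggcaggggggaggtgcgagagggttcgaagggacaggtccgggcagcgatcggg
Hif1a: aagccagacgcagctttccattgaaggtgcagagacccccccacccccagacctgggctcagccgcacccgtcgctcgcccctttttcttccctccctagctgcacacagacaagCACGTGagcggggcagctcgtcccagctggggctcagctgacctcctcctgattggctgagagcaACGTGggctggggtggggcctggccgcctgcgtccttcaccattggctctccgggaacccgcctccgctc
Pgk1: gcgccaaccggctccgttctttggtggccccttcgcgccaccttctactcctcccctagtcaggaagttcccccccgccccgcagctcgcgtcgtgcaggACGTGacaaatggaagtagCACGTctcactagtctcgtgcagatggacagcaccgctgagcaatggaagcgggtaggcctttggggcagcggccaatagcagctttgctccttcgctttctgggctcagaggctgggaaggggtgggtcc

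In Slc2a1 the matches began 61 and 36 bases before the start, in Ddit4 187 and 115 bases before it. In Hif1a an ACGTG on each strand overlapped at 135 and 134 bases, with a further match at 70, and Pgk1 held matches at 150 and 131 bases. Promoter windows of 300 bases (250 before to 50 after the start) were found for 35 of the 38 genes. ACGTG was present, on either strand, in a window of 22 of these 35 genes (62.9%), against 21.8% of the 27025 genes in the RefSeq table. GCGTG was present in 24 of 35 (68.6%), against 35.2%. The members' windows also held more CG dinucleotides, with a median of 19.5 against 7 over all windows, and its part in these shares was not tested. Members with ACGTG had a median log2 ratio, mutant over control, of 0.06 and the 13 without it 0.04. A match is a run of letters and not a measured binding site.

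The question the arrays address is whether these genes differ between hearts labelled Hdac3 mutant and their littermate controls. No member passed the test across all genes in either direction (limma with Benjamini-Hochberg adjustment, 0 of 38 at an adjusted p below 0.05; smallest adjusted p = 0.586), and 0 of the 19622 genes passed (0%). At an unadjusted p below 0.05, 4 members were higher (Slc2a1, Slc2a3, Eno3 and Ddit4), where 3.88% of all genes were, and 2 were lower (Hif1a and Pfkp), where 4.57% were. A mean above 0 was found for 24 members and a mean below 0 for 14, and the median log2 ratio was 0.05, beside 0.01 over all genes tested. By array the members' medians were 0.02, 0.09, 0.01 and 0.03, with 21 of 38, 24 of 38, 19 of 37 and 21 of 38 genes above 0. The lowest value on each array belonged to Hif1a (-0.454), Ldhb (-0.730), Hif1a (-1.224) and Pgk1 (-0.595), and the highest to Slc2a1 (0.385), Adm (0.850), Pgam2 (0.972) and Bnip3 (0.593). The members' counts at this threshold were few, and their median lay close to that of all genes. An exact sign-flip test over 4 arrays cannot give a two-sided p below 0.125.

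**Figure D1:**
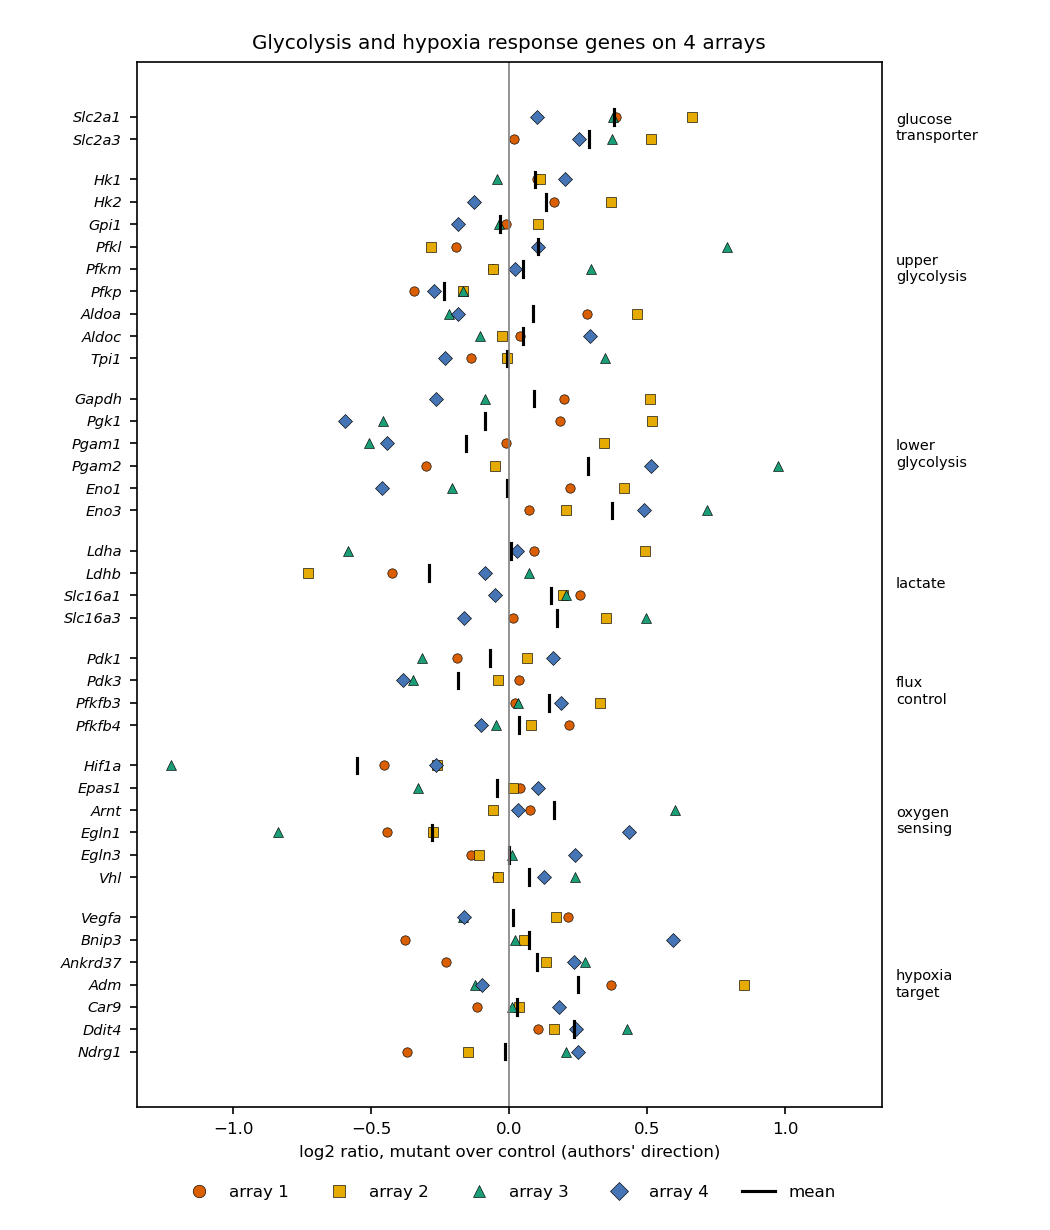
Log2 ratio of mutant over control in the authors' direction (horizontal axis) for each of the 38 genes, grouped by role, with 1 symbol per array and a bar at the mean. Slc2a1, Slc2a3, Eno3, Pfkfb3 and Ddit4 lie to the right of 0 on all 4 arrays and Hif1a and Pfkp to the left, while Gapdh, Pgk1 and Eno1 have arrays 1 and 2 on one side and arrays 3 and 4 on the other.

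**Figure D2:**
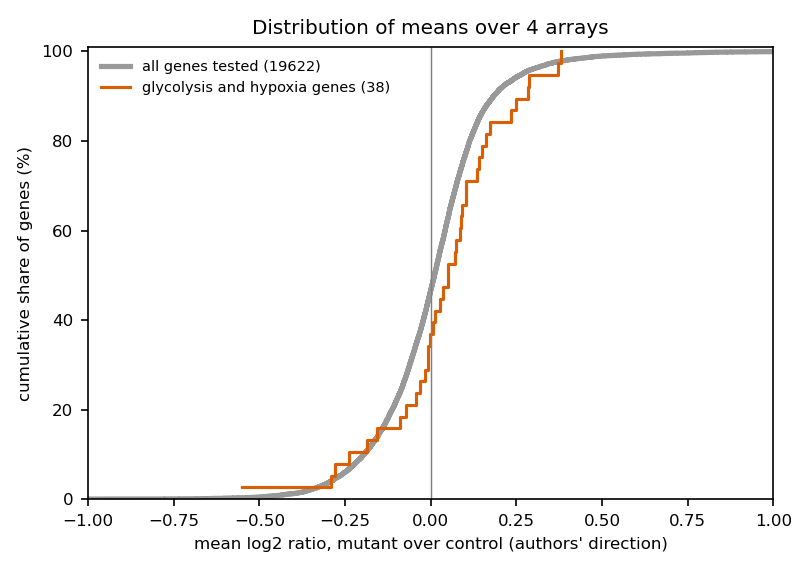
Cumulative share of genes (vertical axis, percent) against the mean log2 ratio of mutant over control in the authors' direction (horizontal axis), for the 38 glycolysis and hypoxia genes and for all 19622 genes tested. Both curves cross the midpoint near 0, with medians of 0.05 and 0.01.

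Both glucose transporters were above 0 on every array. Slc2a1, which encodes GLUT1, the main glucose carrier of the embryo, read 0.385, 0.662, 0.375 and 0.100 on arrays 1 to 4. Its mean log2 ratio was 0.38 ± 0.23 (SD, n = 4), a 1.30-fold ratio, with an adjusted p of 0.586 (limma). Slc2a3, the high-affinity carrier GLUT3, read 0.017, 0.512, 0.372 and 0.252, with array 1 close to 0 and the others apart from it, and a mean of 0.29 ± 0.21 (adjusted p = 0.586). Read as Cy5 over Cy3, the means were 0.14 ± 0.47 for Slc2a1 and -0.02 ± 0.39 for Slc2a3, each with arrays on both sides of 0.

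The enzymes of upper glycolysis, from hexokinase to triose phosphate isomerase, had means between -0.24 and 0.13 and a median of 0.05 (9 genes; 6 above 0, 3 below), or -0.02 as Cy5 over Cy3. Hk2, the regulated hexokinase of muscle, read 0.161, 0.368 and -0.127 on arrays 1, 2 and 4. Its value on array 3 is missing from the authors' table, so its mean of 0.13 ± 0.25 (adjusted p = 0.742) rests on 3 arrays. The ubiquitous hexokinase Hk1 had a mean of 0.09 ± 0.10.

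Of the 3 phosphofructokinase genes, whose products commit sugar to glycolysis, Pfkl and Pfkm matched each other in sign on each array. Pfkp differed from both in sign on arrays 3 and 4. Pfkp, the platelet form, read -0.344, -0.166, -0.167 and -0.274, below 0 on each array and with the smallest spread of the genes at an unadjusted p below 0.05 (mean -0.24 ± 0.09; adjusted p = 0.586). A dimmer Pfkp probe nearer the 3′ end of the same transcript read -0.071, -0.034, 0.119 and 0.187, and the mean over both probes was -0.09. Pfkl, the liver form, read -0.194, -0.282, 0.787 and 0.105, with array 3 far above the rest (mean 0.10 ± 0.48). Pfkm, the muscle form, read -0.057, -0.060, 0.296 and 0.021 (mean 0.05 ± 0.17). No test of the difference between these genes was made.

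In lower glycolysis the ratios of some abundant housekeeping enzymes turned sign between the pairs of arrays. Pgk1, which makes the first ATP of the pathway, read 0.182, 0.516, -0.457 and -0.595, with arrays 1 and 2 above 0 and arrays 3 and 4 below. Eno1, the ubiquitous enolase, read 0.219, 0.417, -0.208 and -0.461. Gapdh, often used as a reference gene, read 0.197, 0.510, -0.087 and -0.267, and the muscle aldolase Aldoa of upper glycolysis 0.282, 0.464, -0.218 and -0.185. Their means in the authors' direction were all within 0.09 of 0 (-0.09 ± 0.53, -0.01 ± 0.40, 0.09 ± 0.34 and 0.09 ± 0.34). The spread between arrays was several times the mean in each case.

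Read as Cy5 over Cy3, these 4 genes were above 0 on all 4 arrays. The means became 0.44 ± 0.18 for Pgk1 (limma adjusted p = 0.121), 0.33 ± 0.13 for Eno1 (0.162), 0.29 ± 0.12 for Aldoa (0.191) and 0.27 ± 0.18 for Gapdh (0.264), and none passed. Pgam1, phosphoglycerate mutase, was close to them with -0.013, 0.342, 0.509 and 0.443 as Cy5 over Cy3 (mean 0.32 ± 0.23, adjusted p = 0.257). Of the 15 sarcomere genes of heart muscle, 8 were likewise above 0 and 0 below 0 on all arrays as Cy5 over Cy3, with a list median of 0.17. Over all genes 13.2% were above and 13.7% below. Over genes with a mean processed signal of at least 10000 these shares were 22.6% and 21.9%. Cardiac actin Actc1, for one, read 0.199, 0.639, -0.145 and -0.528 in the authors' direction. The sarcomere genes Actn2 and Tnni3 had means below 0 as Cy5 over Cy3 (-0.24 and -0.19). The part of heart muscle content in the enzymes' ratios was not tested. If the labels are right these are mutant over control ratios, and if the authors' columns are right the same values run with the dye. These readings cannot be told apart here, since the labels and the authors' columns differ in direction on arrays 3 and 4.

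A Cy5 over Cy3 ratio of one sign on all 4 arrays was found for 7 members above 0 (Aldoa, Gapdh, Pgk1, Eno1, Pfkfb4, Vegfa and Adm) and 6 below 0 (Pfkl, Pfkm, Pgam2, Egln3, Vhl and Ndrg1). Over all genes the shares were 13.2% above and 13.7% below. In the authors' direction 5 members were above 0 on all arrays and 2 below, where 10% and 9.71% of all genes were. At an unadjusted p below 0.05, 7 members were above 0 as Cy5 over Cy3 and 3 below, where 7.57% and 7.52% of all genes were. Signals were highest for the housekeeping enzymes, and among the 2100 genes with a mean processed signal of at least 10000, 22.6% were above 0 and 21.9% below 0 on all arrays as Cy5 over Cy3, against 12.1% and 12.7% of dimmer genes. Of the 15 members at that signal 4 were above and 1 below, and of the 23 dimmer members 3 were above and 5 below. The part of signal in these values was not tested. As Cy5 over Cy3, 133 genes were called higher (0.678%) and 8 lower (0.0408%) at an adjusted p below 0.05 (limma), and 0 of the 38 members were among them.

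**Figure D3:**
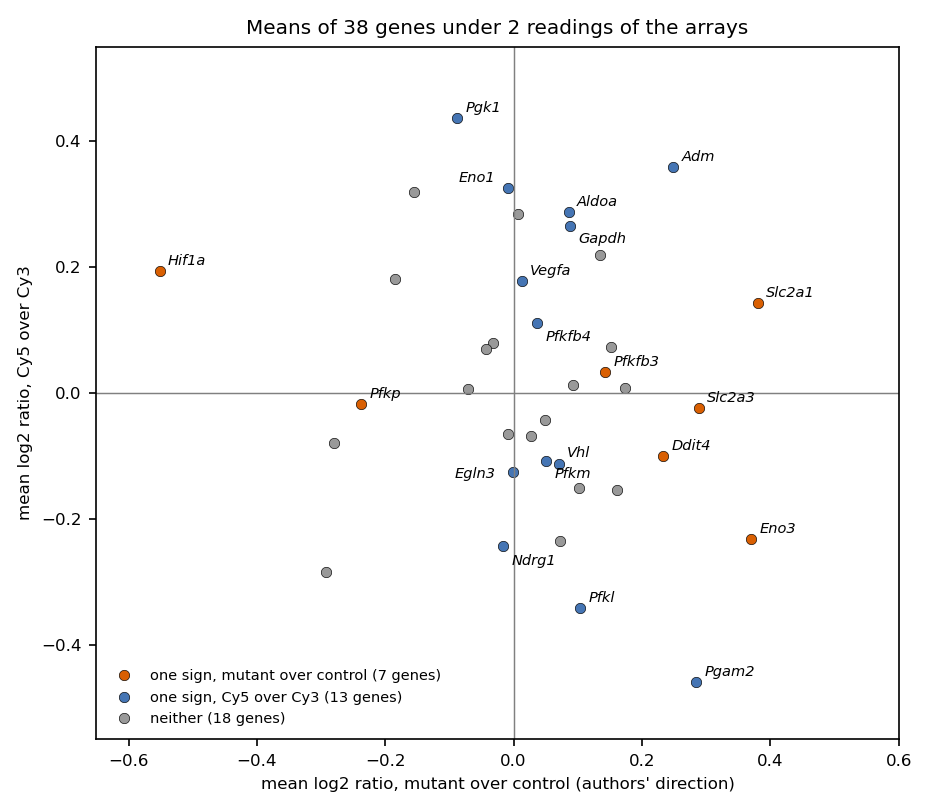
Mean log2 ratio of each of the 38 genes as mutant over control in the authors' direction (horizontal axis) and as Cy5 over Cy3 (vertical axis). On the vertical axis the means run from Pgk1 at 0.44 to Pgam2 at -0.46, and on the horizontal axis from Slc2a1 at 0.38 to Hif1a at -0.55, and no gene is the farthest from 0 on both.

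In lower glycolysis the muscle forms Eno3 and Pgam2 differed in sign pattern from the housekeeping forms Eno1 and Pgam1, and also from each other. The muscle aldolase Aldoa had the same signs as Eno1. Eno3, muscle enolase, read 0.071, 0.205, 0.718 and 0.488, above 0 throughout (mean 0.37 ± 0.29, 1.29-fold; adjusted p = 0.586), but its mean was 0.18 with arrays weighted by their spread and -0.23 as Cy5 over Cy3. Pgam2, the muscle mutase, read -0.300, -0.051, 0.972 and 0.515, with a mean of 0.28 ± 0.57 in the authors' direction and -0.46 ± 0.39 as Cy5 over Cy3. For Pkm, pyruvate kinase, the ratios were -0.246, 0.047, 0.447 and 0.114 (mean 0.09 ± 0.28). No test of the difference between muscle and housekeeping forms was made.

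Several of these enzymes were measured with more than 1 probe, and for 14 members more than 1 probe was past the filter. Gapdh had 7 probes on one transcript, which the files place from position 156 to position 1175. The probe nearest the 5′ end read -0.203, -0.294, -1.331 and 0.486, and the probe used, nearest the 3′ end, 0.197, 0.510, -0.087 and -0.267. The sign of Gapdh thus changed along the transcript on arrays 1, 2 and 4. Tpi1, triose phosphate isomerase, read -0.384, -0.332, -0.760 and 0.306 at position 634 and -0.140, -0.009, 0.347 and -0.233 at position 1204. From the 5′ to the 3′ probe both genes went up on arrays 1 to 3 and down on array 4, with 5′ minus 3′ differences of -1.244 for Gapdh and -1.107 for Tpi1 on array 3. Of the 5 other members with probes so spaced, Hk1 had these signs as well, whereas on array 3 Ldha (0.463) and Epas1 (0.329) had the opposite sign, Pfkp was below 0 on all arrays and Arnt on array 3 alone.

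Over the transcripts of all genes with filtered probes at least 300 bases apart, the 5′ probe minus the 3′ probe had medians of -0.03, -0.04, -0.06 and 0.03 on arrays 1 to 4 (2687 to 2689 transcripts). Their lower and upper quartiles were -0.43 and 0.33 on array 3, and lay between -0.18 and 0.23 on the other arrays. RNA integrity was not given in the labels, and its part in these values was not tested.

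**Figure D4:**
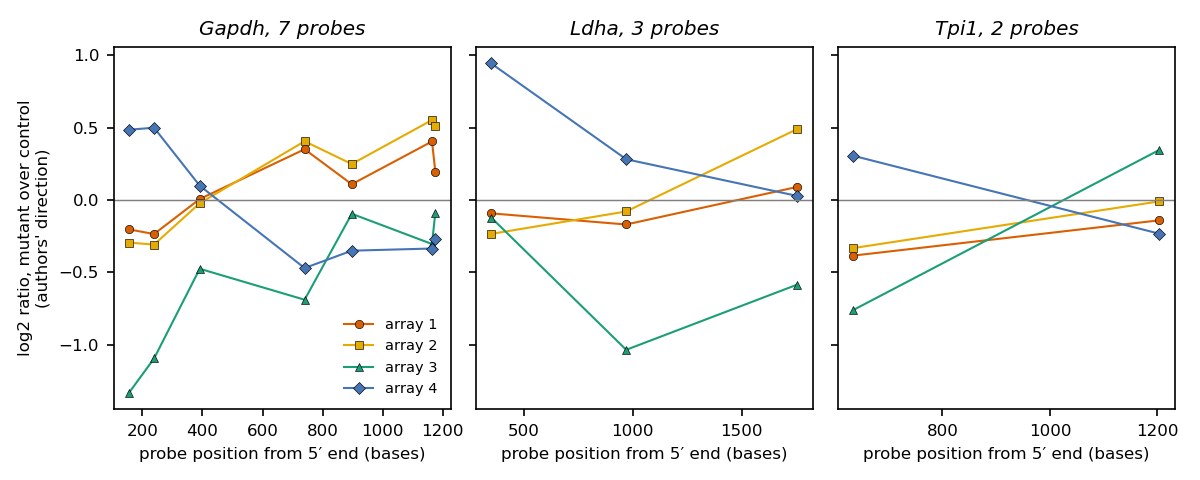
Log2 ratio of mutant over control in the authors' direction (vertical axis) against the position of the probe from the 5′ end of its transcript in bases (horizontal axis), with 1 line per array, for Gapdh, Ldha and Tpi1. On array 3 Gapdh runs from -1.331 at position 156 to -0.087 at position 1175, and on array 4 from 0.486 to -0.267.

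Some of the brightest probes are placed away from the other probes of their gene. In mm9, the build of the files, the brightest Gapdh probe is placed at chrX:12902948-12903007, whereas 5 of the other Gapdh probes lie on chromosome 6. The brightest Hk1 probe is placed on chromosome 5 and the brightest Pgk1 probe on chromosome 3. Eno1 had only 1 probe on the array, placed on chromosome 2 (80678866 to 80678925), so no other Eno1 probe can be set beside it. Gapdh, Pgk1 and Eno1 are known to have near-identical copies in the genome, so which transcripts these probes measured is uncertain. The second Pgk1 probe, placed on chromosome X and described in the files as a related sequence, read 0.140, 0.482, -0.389 and -0.236, with the same signs as the first. A Gapdh probe on chromosome 6 at position 1164 read 0.405, 0.553, -0.304 and -0.335, also with the same signs as the brightest.

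Of the lactate genes, Ldha, the HIF-induced subunit that favours lactate production, read 0.091, 0.491, -0.584 and 0.028, with arrays 2 and 3 apart in opposite directions (mean 0.01 ± 0.44). Its probes at positions 351 and 970 had means of 0.12 and -0.25. Ldhb, the heart subunit, read -0.423, -0.730, 0.072 and -0.087 (mean -0.29 ± 0.36; adjusted p = 0.607) and was lower on arrays 1 and 2 than on 3 and 4. The lactate carriers Slc16a1 and Slc16a3 had means of 0.15 ± 0.14 and 0.17 ± 0.30, each above 0 on 3 of 4 arrays. The Slc16a1 probe was dim (mean processed signal 63.3). From scanner intensities after normexp and loess its mean was 0.09, with every array above 0. A second Slc16a3 probe of similar signal had a mean of 0.26.

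Genes that set the flow through the pathway had means between -0.18 and 0.14. Pfkfb3, which makes the activator of phosphofructokinase, was above 0 on all arrays, from 0.020 to 0.330 (mean 0.14 ± 0.15; adjusted p = 0.638), and its mean without replicate 2 was 0.08. Pdk1, the HIF-induced kinase that closes pyruvate dehydrogenase, read -0.191, 0.063, -0.315 and 0.160 (mean -0.07 ± 0.22), with 2 arrays on either side of 0. Pdk3, a related kinase, had a mean of -0.18 ± 0.21 and Pfkfb4 one of 0.04 ± 0.14.

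Among the oxygen-sensing genes, Hif1a had the mean farthest from 0 of all members. Hif1a encodes the oxygen-regulated alpha subunit and read -0.454, -0.261, -1.224 and -0.267, with array 3 far below the others and every array below 0. On average Hif1a was at -0.55 ± 0.46 (SD, n = 4), or 0.682-fold (limma adjusted p = 0.586), and at -0.33 without array 3. Its probe lies at chr12:75047269-75047329 in mm9. A far dimmer Hif1a probe, on another transcript (AK017853), read 0.157, 0.021, -0.124 and 0.068, so the lower value was seen with 1 of 2 probes, and the mean over both was -0.26. As Cy5 over Cy3 the mean of the brighter probe was 0.19 ± 0.75.

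The partners and regulators of Hif1a had means nearer to 0. Epas1, which encodes HIF-2 alpha, had a mean of -0.04 ± 0.20, while its second probe of similar signal read 0.451, 0.279, 0.566 and -0.028 (mean 0.32). Arnt, the shared partner, was at 0.16 ± 0.30, with array 3 at 0.601 and the rest between -0.060 and 0.076. Egln1, the main prolyl hydroxylase, was at -0.28 ± 0.53, with array 4 above 0 and arrays 1 to 3 below, from a dim probe (mean processed signal 67.9). Egln3, a hydroxylase that HIF induces, read -0.140, -0.111, 0.009 and 0.239 (mean -0.0008 ± 0.17), and Vhl had a mean of 0.07 ± 0.14.

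The HIF targets outside glycolysis had a median of 0.07 in the authors' direction, with 6 of 7 means above 0, where 10494 of 19622 were over all genes. Their median as Cy5 over Cy3 was -0.10, with 2 of 7 above 0. Ddit4, a stress-induced inhibitor of mTOR signalling, read 0.104, 0.161, 0.427 and 0.240, above 0 on each array (mean 0.23 ± 0.14, 1.18-fold; adjusted p = 0.586). Its mean was 0.15 with arrays weighted by their spread and -0.10 as Cy5 over Cy3. Vegfa, the vessel growth factor, read 0.213, 0.169, -0.168 and -0.163, so that arrays 1 and 2 mirrored arrays 3 and 4 (mean 0.01 ± 0.21; 0.18 ± 0.02 as Cy5 over Cy3, adjusted p = 0.266). A second Vegfa probe, on another transcript, read 0.238, 0.221, 1.030 and 0.427, above 0 on every array, and the mean over both probes was 0.25. Adm, the vasoactive peptide adrenomedullin, read 0.367, 0.850, -0.123 and -0.098 (mean 0.25 ± 0.46). Bnip3, a mitophagy receptor, Ankrd37, Car9, an acid-exporting carbonic anhydrase, and Ndrg1 had means of 0.07, 0.10, 0.03 and -0.02, each with arrays on both sides of 0.

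Other genes of the same pathways were read from lists of further glycolysis and hypoxia genes. Of 29 tested genes of glycolysis and pyruvate use, Pgk2 passed across all genes as Cy5 over Cy3 and is described further on. In the authors' direction 0 of the 29 passed, and 0 were higher and 5 lower at an unadjusted p below 0.05 (limma). Their median was -0.02. The 4 of smallest p in this direction were Pklr, Pgm1, Pdha1 and Pdp1, each below 0 on all arrays with an adjusted p of 0.586 (limma). Pklr, the pyruvate kinase of liver and red cells, was at -0.30 ± 0.18 and Pgm1 at -0.35 ± 0.28. Pdha1, a catalytic subunit of pyruvate dehydrogenase, was at -0.30 ± 0.23, and Pdp1, a phosphatase that opens this enzyme, at -0.23 ± 0.18. The Pklr probe was dim (mean processed signal 38.9). From scanner intensities after normexp and loess its mean in the authors' direction was -0.09, with array 4 at 0.09. Without array 3, which was the lowest for Pgm1, Pdha1 and Pdp1, the other arrays still read between -0.257 and -0.084 for these 3 genes. Of 30 tested hypoxia genes, 0 passed, 3 were higher and 0 lower at an unadjusted p below 0.05, and the median was 0.04. Cited2, a HIF-induced inhibitor of HIF activity needed for heart development, read 0.249, 0.739, 0.834 and 0.225 (mean 0.51 ± 0.32, adjusted p = 0.586). Bhlhe40 (0.32 ± 0.30) was below 0 on array 1 and above it on the others, and Ero1l was at -0.37 ± 0.47. As Cy5 over Cy3 the means were -0.02 for Cited2, -0.22 for Bhlhe40, 0.32 for Ero1l, 0.16 for Pgm1, 0.12 for Pdha1, 0.11 for Pdp1 and -0.12 for Pklr, so that of these 7 genes only Pklr kept its sign.

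Markers of other cells were read in the same pools, and none of these lists held a gene that passed the test in the authors' direction. As Cy5 over Cy3 the second heart field gene Eya1 passed (mean 0.62 ± 0.11, limma adjusted p = 0.0397), where 0.678% of all genes were called higher. The erythroid gene Hemgn had an adjusted p of 0.0565 in that reading, and 0.0487 after normexp and loess (limma). The 13 erythroid genes tested had a median of -0.23, with 12 of 13 means below 0 and array medians of -0.159, -0.577, -0.168 and -0.189. All 9 liver and foregut endoderm genes tested had means above 0 (median 0.28), and the median of 12 endothelial genes was 0.19. All 7 epicardial genes had means below 0 (median -0.18), with array medians of 0.031, -0.702, -0.295 and -0.065. Turned to Cy5 over Cy3, the medians of the erythroid, endoderm, endothelial and epicardial lists were -0.13, 0.05, -0.05 and -0.07. Of the defining endoderm genes, Afp was well above background in all 8 channels and Alb was not past the filter. Of 7 listed trophoblast genes 2 were tested. Prl3d1 read -0.863 on array 1 and 1.286 to 1.340 on the others, whereas Plac1 read 0.003, -0.225, 0.557 and 0.361. The part of these cells in the ratios of the glycolysis and hypoxia genes was not tested.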

How the data were processed

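RNA from 4 pairs of pooled heart samples was hybridised to 4 two-colour Agilent arrays of 44397 spots on 1 slide. Per the file headers, the deposited scanner files hold spot and background intensity and a log10 ratio of Cy5 over Cy3 from Agilent Feature Extraction 11.5.1.1, whereas the submitters' processing notes name version 8.5.1.1. The authors' deposited table gives log2 ratios of mutant over wild type by array, by a normalization that the sources used here do not state. Its column medians were -0.029, -0.017, 0.017 and 0.023.

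Table rows were joined to 39429 non-control probes by probe name, and rows of one probe were averaged. Filtering kept 25473 probes whose mutant channel, or whose control channel, was well above background throughout, and then 1 probe per gene by signal (19622 genes). Ratios were tested against 0 in R 4.3.3 with limma 3.58.1 (lmFit, eBayes), Benjamini-Hochberg adjusted over all genes, with a threshold of 0.05. The fit was tested on simulated data. Per channel, 66.6% to 71.2% of probes exceeded background clearly, 0 spots were saturated, and the number of arrays limits the precision.

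As an alternative, scanner intensities were corrected with normexp (offset 50) and normalized by loess. Others changed direction, filter, centring, probe choice, array weights, pairing and dye term, or left out each array. The members and lists were chosen with earlier results of these data known. Every array's value is given for members at an unadjusted p below 0.05 or of one sign with a mean of at least 0.2, for 9 members listed by name, and for others (Pkm, Pfkm, Tpi1, Gapdh, Eno1, Aldoa, Pgam1, Pgam2, Ldhb and Adm) chosen after their values were seen. Up to 4 genes of smallest p were named from each further list, and some are not reported here.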

Additional observations from a re-analysis of the deposited data

Results flagged for a closer look

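Of 74 sets of 4 arrays checked (50 genes and 24 further probes of the members), 3 had 1 array far from the other 3, where chance flags about 1 in 20 such sets. Pdha1 read -0.649 on array 3 and between -0.194 and -0.166 on the others. Pgm1 read -0.773 on array 3 and between -0.257 and -0.173 on the others. The Ldha probe nearest the 5′ end (A_55_P2141876) read 0.944 on array 4 and between -0.234 and -0.092 on the others.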

How the results depend on the processing

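No member was called under any of the 15 other settings. In the authors' direction, the means of Slc2a1, Slc2a3, Eno3, Pfkfb3, Ddit4, Hif1a and Pfkp kept their sign under every setting. With arrays read as labelled, of these genes signs turned for Slc2a3 (-0.022 by loess, -0.024 in the authors' table), Eno3 (-0.235 and -0.232), Hif1a (0.175 and 0.194) and Ddit4 (-0.098 and -0.100). Other members turned as well, such as Pgam2 (0.28 in the authors' direction, -0.46 in both as labelled) and Pgk1 (-0.09, then 0.43 and 0.44). With arrays read as labelled the members' median was 0.0026 by loess and 0.0074 in the authors' table. On all arrays 5 and 6 members were below 0, where 15.1% and 13.7% of all genes were. Over all genes 98 and 133 were called higher and 9 and 8 lower. Array weights gave 2 genes higher and 2 lower. The mean of all probes gave 8 members above 0 on every array, where 10.0% of all genes were. Leaving out 1 array gave medians of 0.027 to 0.064 and 0 to 2 genes called higher. On the arrays left, 6 to 8 members were above 0, where 14.1% to 19.2% of all genes were. Below 0 were 3 to 4 members, where 13.4% to 17.8% of all genes were. The cause of these changes was not tested beyond fewer arrays making one sign more frequent. Single channels with no replicate block gave 0 calls. At an unadjusted p below 0.05 they gave 3 members higher and 0 lower, where 338 and 318 of 19622 genes were. With 4 arrays, small differences were not detectable.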

Other observations

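Pgk2, the testis form of phosphoglycerate kinase, was singled out after its values were seen. It read 1.805, 1.406, -1.223 and -1.257 in the authors' direction, a mean of 0.18 ± 1.65 (SD, n = 4; limma adjusted p = 0.934). As Cy5 over Cy3 it was above 0 on all 4 arrays, with a mean of 1.42 ± 0.27 (limma adjusted p = 0.0383), and 0.86 after normexp and loess (adjusted p = 0.0384). Its probe was well above background in all 8 channels at a low mean processed signal of 49.4. Pgk2 is a retrogene of Pgk1, and whether its probe also measures Pgk1 was not tested.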
